A study of Oryza sativa with 2 samples.

Results

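The first part of rice chromosome 9 was described from 1104 gene identifiers. They are the first 30% of the 3680 identifiers that begin with MH09g, taken in identifier order, out of 57342 identifiers with an expression value. The first member is MH09g0010000 and the last is MH09g0169800. Membership rests on the identifier alone and used no measured value. The identifiers were read as following the chromosome, but no source used here gives their positions, so order means identifier order throughout.

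The RNA came from Minghui 63 rice, an indica parent of the hybrid Shanyou 63, with no transgene named in the labels. Dry seeds of both libraries were soaked in water at 37 °C for 72 h. Plants were 2 weeks old, were grown in a day of 14 h at 32 °C and a night of 10 h at 28 °C, and were sampled at 8:00. The labels call the tissue seedling, whereas the extraction protocol names leaves. Total RNA depleted of ribosomal RNA was sequenced in 2 libraries of a single group, and nothing in the labels says that they came from separate plants, so the spread between them may be technical. The labelled tissue could not be checked against marker genes among the MH identifiers, because these carry no gene names.

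The tip of the short arm of chromosome 9 in rice carries the main array of ribosomal DNA, the repeated genes for the large RNAs of the ribosome. RNA polymerase I transcribes that array in the nucleolus, and the protein-coding genes that follow it are transcribed by RNA polymerase II. Chromosome arms that are rich in heterochromatin and transposable elements, as the short arms of chromosomes 4 and 10 of rice are, hold many gene models that resemble parts of transposons. In RNA-seq, reads from repeated sequence often align to several places and are then left uncounted by gene counters.

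Few members were called expressed. An identifier is called expressed here when its FPKM, the count per kilobase of model length scaled to the gene total of the library, is at least 1 in each library. Of the 1104 members, 121 were expressed, which is 11.0% (95% Wilson interval 9.25% to 12.9%), where 23.4% of all 57342 identifiers were. The share was 11.4% in library 1 and 11.1% in library 2. In RNA of a whole tissue, a low level in all cells and a high level in few cells cannot be told apart. No count at all was found in either library for 574 members, or 52.0% (49.0% to 54.9%), against 36.2% of all identifiers. Another 402 members had counts but stayed under an FPKM of 1 in both libraries, and 7 reached it in only 1 of them, 5 in library 1 and 2 in library 2. All Wilson intervals here treat identifiers as independent and cover counting error only.

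Depth limits what the 0 counts can show. The libraries held 18096722 and 18799901 gene counts. MH identifiers had 8578054 and 8831021 of them, so each FPKM here is lower than one scaled to MH counts alone. With that scaling 12.8% of members were expressed. A count of 0 allows up to 3 counts, which for the median member length of 993 bases is an FPKM of 0.167 in library 1 and 0.161 in library 2. An FPKM of 1 at that length corresponds to 18.0 and 18.7 counts. Members without a count were shorter, with a median of 702 bases, so the FPKM that a 0 allows is higher for them. At 166 bases in library 1 and 159.6 in library 2, 3 counts already give an FPKM of 1. For models shorter than that, a 0 does not exclude the floor. Entries with more than a single alignment, which were not counted for any gene, made up 27.7% and 25.8% of all entries in the count files. The members without a count were not detected by singly aligned reads at this depth, which is not the same as silent. How many uncounted entries belong to the members was not tested.

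Most members with counts had very few. Counts appeared in library 1 alone for 146 members and in library 2 alone for 94, and 350 members had 1 to 9 counts in sum. A sum of 10 or more was reached by 180 members, or 16.3%, against 34.5% of all identifiers. By mean FPKM, 287 members lay above 0 and under 0.1, 118 between 0.1 and 1, 96 between 1 and 10, 27 between 10 and 100, and 2 at 100 or more. These were 26.0%, 10.7%, 8.70%, 2.45% and 0.181% of the members. Over all identifiers the shares were 23.1%, 16.5%, 17.7%, 5.93% and 0.654%. Of these classes, only the lowest held a larger share of the members. An FPKM of at least 10 in each library was reached by 27 members, 2.45%, where 6.33% of all identifiers passed. The members were 1.93% of the MH identifiers and held 0.611% and 0.600% of the MH counts in libraries 1 and 2.

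No member could be assigned to the ribosomal array. In a RefSeq table of japonica rice (assembly ASM3414082v1), 1533 of 1756 ribosomal RNA rows lie on chromosome 9, and all 1533 come before its first protein-coding row. They are 511 copies each of lengths 156, 1811 and 3383. No member has a length of 1811 or 3383. The members of length 156 number 2, MH09g0086100 and MH09g0087200, and both had 0 counts in both libraries. Ribosomal RNA was depleted and entries with several alignments were not counted, so these 0 counts cannot show whether the 2 are ribosomal. A length of 156 occurs in 62 identifiers of the whole table, so it does not identify a ribosomal gene. Minghui 63 is not the reference line, and 0 identifiers matched the table by name, so members are given by identifier without a gene name or function.

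Identifier numbers advance by 100, with 5 jumps of 10000 that divide the members into 6 blocks whose meaning no source states. The first block holds 33 identifiers, MH09g0010000 to MH09g0013200, and 23 of them (69.7%) had no count in either library, less than the 74.4% of the fifth block. Their distance from a ribosomal array is not known. Its expressed members were 3, and they were its last 3. MH09g0013000 had 29 and 36 counts in libraries 1 and 2 (FPKM 4.41 and 5.28). MH09g0013100 had 155 and 143 counts (FPKM 4.91 and 4.36), and MH09g0013200 had 192 and 184 (FPKM 5.07 and 4.68). They sit next to each other at similar levels, and the first identifier of the next block, MH09g0023200, was close to them at an FPKM of 5.60 and 4.90. Earlier in the order, MH09g0011400 reached an FPKM of 1.07 in library 1 but 0.733 in library 2, so it did not count as expressed.

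The other blocks differed in summed counts per kb more than in the share expressed. The 239 identifiers of the second block and the 172 of the third had 13.0% and 13.4% expressed, the 270 of the fourth had 10.4%, and the 347 of the sixth had 10.1%. Summed counts per kb of model length were 20.1 in the second block, 39.5 in the third, 49.8 in the fourth and 23.3 in the sixth in library 1, and 20.3, 39.6, 49.7 and 24.4 in library 2. Few identifiers held much of these sums. In library 1, MH09g0107400 and MH09g0093100 had 4557 and 4402 of the 21923 counts of the fourth block. MH09g0063000 had 3046 of the 9162 of the third, so the sums do not give the level of most identifiers. The fifth block, MH09g0121000 to MH09g0125200, stood lowest. It had 1 expressed identifier of 43 (2.33%, Wilson interval 0.412% to 12.1%), 74.4% without a count, and 1.33 and 1.18 counts per kb. Its expressed identifier was MH09g0122900, 348 bases long, with 50 and 46 counts (FPKM 7.94 and 7.03).

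Cut into 10 bins of 110 or 111 members, the expressed share ran from 6.36% to 15.3%, with the lowest value in bin 7 and the highest in bin 3. The Wilson intervals of these 2 bins overlap (3.12% to 12.6% and 9.79% to 23.2%). Members without a count made up 45.0% to 62.7% of a bin. The highest identifier of a bin had a mean FPKM from 6.91 (MH09g0168400, in bin 10) to 114 (MH09g0150900, in bin 9). No steady rise or fall along the members was visible.

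**Figure D1:**
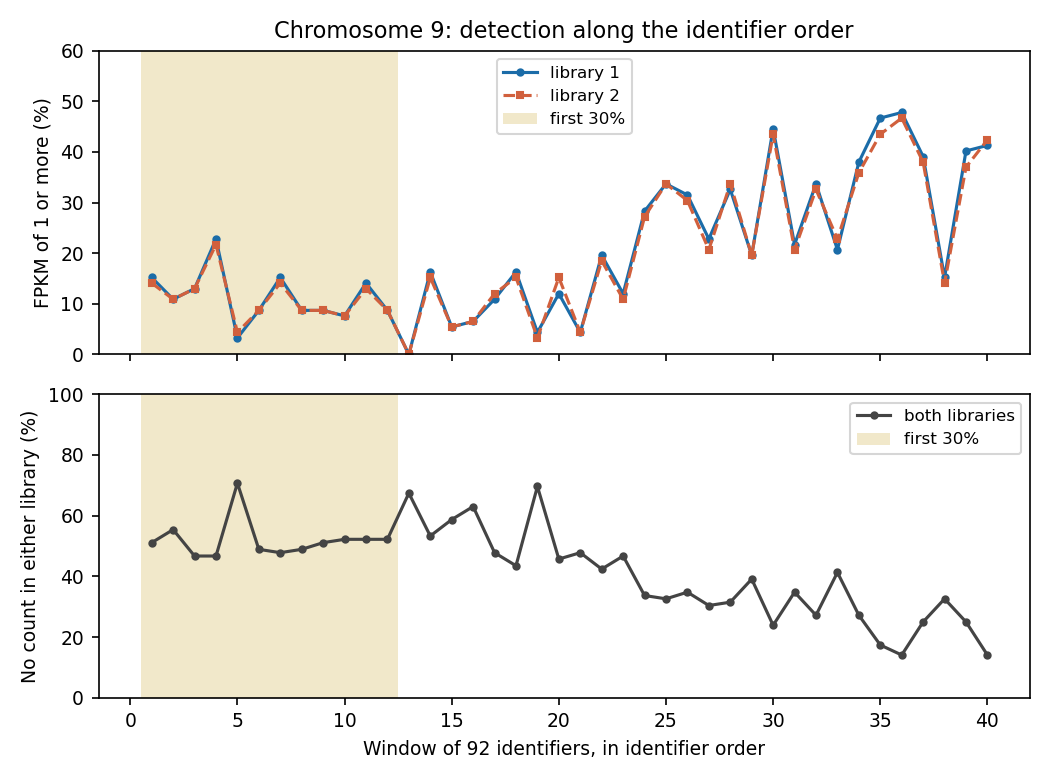
Upper panel, percentage of identifiers with an FPKM of 1 or more in each library (circles and solid line, library 1; squares and dashed line, library 2), and lower panel, percentage without a count in either library, in 40 windows of 92 identifiers along chromosome 9, with the first 30% shaded. The 12 windows of members hold 3.26% to 21.7% expressed in both libraries, and the low shares go on past the shaded part before they rise towards the last windows.

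The expressed share did not rise just past the limit at 30%. The last 100 identifiers inside it had 8 expressed (8.00%, 4.11% to 15.0%) and 52 without a count, and the first 100 outside had 0 expressed (0% to 3.70%) and 68 without a count. Summed counts per kb were 8.52 and 9.30 inside and 0.614 and 0.517 outside, in libraries 1 and 2. MH09g0169800, the last member, and MH09g0169900, the identifier after it, both had 0 counts in both libraries. With the whole chromosome cut into 10 equal bins, the expressed share was 14.9%, 8.42% and 9.51% over the members, 6.52%, 10.3% and 14.9% in the next 3 bins, and 28.3% to 36.7% in the last 4. The 12 windows of the members and the 16 middle windows overlapped in expressed share, since the middle ones ran from 0% to 33.7%. Low expressed shares were thus measured over the first 6 of the 10 bins and not over the members alone.

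The 574 members without a count formed 246 runs, and 79.8% of them had a neighbour without a count. The longest run covered 18 identifiers, MH09g0068100 to MH09g0069800, and the next longest 12, MH09g0036900 to MH09g0038000. The 121 expressed members formed 82 runs, and 55.4% of them lay beside another expressed member. Such shares depend on how common each state is, with 52.0% of members without a count and 11.0% expressed, so the 2 shares cannot be set against each other. The longest expressed run was 5 identifiers, MH09g0057900 to MH09g0058300, and it was uneven. MH09g0057900 had an FPKM of 42.8 and 43.0, and the 4 after it, 192 to 558 bases long, lay between 2.11 and 7.20. Equal model lengths in neighbours, which adjacent copies of a gene can give, occurred in 4 of 1103 neighbouring pairs.

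The highest member was MH09g0150900, 1926 bases long. It had 3968 and 4158 counts, and its FPKM was 114 in library 1 and 115 in library 2 (114 ± 0.699, SD, n = 2). MH09g0063000 followed, with 3046 and 3160 counts over 1564 bases (108 ± 0.105). These were the 2 members at an FPKM of 100 or more. MH09g0107400 had the most counts per library of any member, 4557 and 4788 over 2808 bases (FPKM 90.2 ± 0.722). The FPKM ranges of these 3 over the libraries did not overlap each other. Their ranks among the MH identifiers by mean FPKM were 265, 286 and 351.

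Below them the levels dropped. MH09g0072100, only 216 bases long, had 249 and 223 counts and FPKM values of 63.7 and 54.9. MH09g0057900 at 42.9 ± 0.0931, MH09g0099100 at 42.6 ± 0.490 and MH09g0150000 at 41.3 ± 3.21 did not differ beyond their spread, as the FPKM ranges of neighbours in that order overlapped. MH09g0150000 is a model of 204 bases with 144 and 167 counts. MH09g0031300 had a mean FPKM of 35.5 ± 0.443, clear of its neighbours in the order. MH09g0145700 at 28.4 ± 1.59 and MH09g0097900 at 26.0 ± 1.77 overlapped in range. Of the 10, 5 had no expressed identifier on either side, and MH09g0150000 and MH09g0145700 each stood between neighbours without a count. Over all 121 expressed members, 55.4% lay beside another expressed member, so 5 of 10 does not set the highest apart. With 52.0% of members without a count, such neighbours are common.

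**Figure D2:**
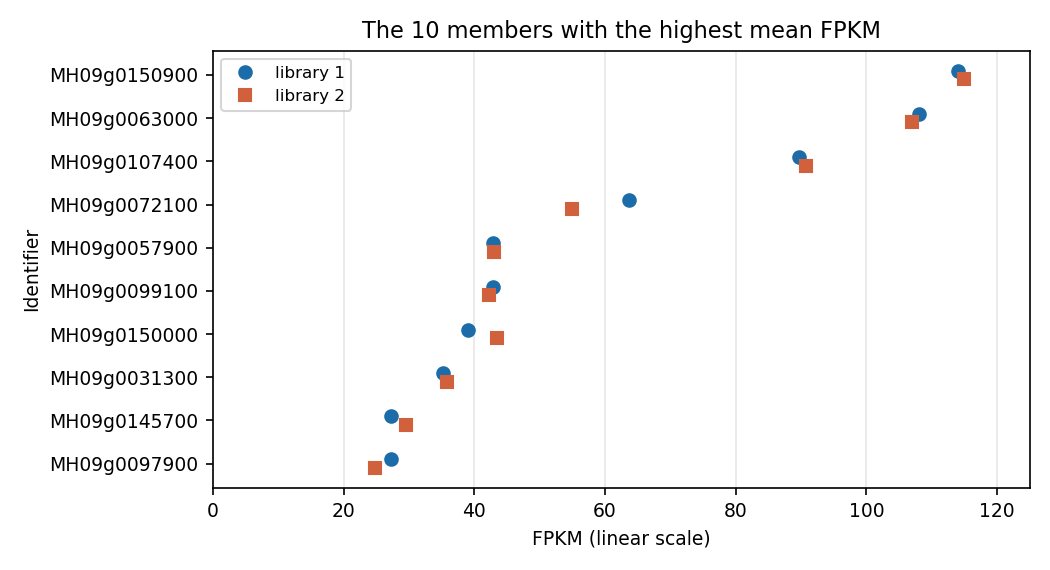
FPKM of the 10 members with the highest mean, with circles for library 1 and squares for library 2. MH09g0150900 and MH09g0063000 lie above 100 in both libraries, MH09g0072100 shows the widest gap between libraries (63.7 and 54.9), and the lowest of the 10 have a mean of 28.4 and 26.0.

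Ranked by count rather than by FPKM, long models came forward. The 10 members with the most counts held 51.7% of the member counts in library 1 and 52.1% in library 2, and 5 of them were also among the 10 with the highest FPKM. In library 1 the same share ran from 23.0% (chromosome 3) to 70.3% (chromosome 11) over the other first parts. It was 38.6% in the last part of chromosome 9. MH09g0093100, the longest member at 17130 bases, had 4402 and 4368 counts and an FPKM of 13.9 ± 0.450. MH09g0102600, 12583 bases long, had 2618 and 2479 counts and an FPKM of 11.0 ± 0.720. It lies next to MH09g0102700, with 733 and 711 counts over 1869 bases and an FPKM of 21.0 ± 1.02. The others were MH09g0030500, MH09g0097100 and MH09g0058700, with mean FPKM of 16.3, 16.2 and 7.76. All expressed members together held 96.9% and 97.3% of the member counts.

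Near the floor the call turned on few counts. MH09g0138800, a model of 258 bases, counted as expressed with 5 and 6 counts (FPKM 1.07 and 1.24). MH09g0065700 passed with 58 and 49 counts over 2483 bases (1.29 and 1.05). MH09g0101500 failed with 46 and 29 counts over 1633 bases, because its FPKM was 1.56 in library 1 and 0.945 in library 2. Short models can thus pass with fewer counts than long models that fail.

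The libraries were compared to see whether any member differed between them beyond sampling noise. The counts of each identifier were set against the scaled library sizes by a two-sided exact binomial test, with p adjusted after Benjamini and Hochberg over the 19770 identifiers that had at least 10 counts in sum. Of 180 members tested, 0 passed an adjusted p of 0.05, where 0.678% of all tested identifiers did. At an unadjusted p under 0.05 there were 15 members (8.33%), against 8.31% of all tested. With DESeq2 size factors in the same test the count was also 0. Those factors were 1 for both libraries, so they treat the libraries as equal in size. Over all identifiers they gave 189 calls, against 134 with the TMM-scaled sizes. The smallest p belonged to MH09g0057800, with 10 and 1 counts (p = 0.00589, adjusted p = 0.283, exact binomial test). A share of 0.678% of 180 members is little more than 1 member, so the 0 does not set the members apart. It compares these libraries and no conditions.

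Among the 121 expressed members, 115 lay within 1.5-fold between the libraries. The median absolute log2 ratio of FPKM was 0.13. The widest ratio was that of MH09g0162900, with 12 and 24 counts (FPKM 1.47 and 2.84, an absolute log2 ratio of 0.95).

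**Figure D3:**
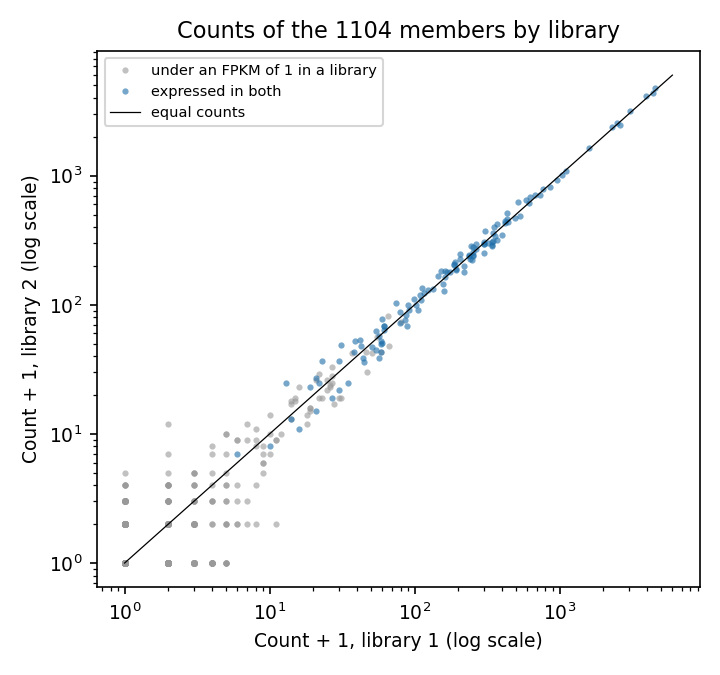
Count plus 1 of each of the 1104 members in library 1 (horizontal, log scale) and library 2 (vertical, log scale), blue where the FPKM was at least 1 in each library and grey otherwise, with a line at equal counts. Points spread widely under about 10 counts and close in on the line above, up to MH09g0107400 at 4557 and 4788.

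Identifiers at the other end of the same chromosome were expressed far more often. The last 30% of chromosome 9, also 1104 identifiers, had 359 expressed, or 32.5% (29.8% to 35.3%), and 296 without a count, or 26.8% (24.3% to 29.5%). The difference in expressed share, last minus first, was 22.6 points in library 1 and 21.9 in library 2, and 21.6 for identifiers that pass in both. The SD of the difference between the libraries was 0.512 points (n = 2). That spread may be technical and says nothing of how regions vary. The same libraries give both ends, an exact sign permutation over 2 libraries cannot go below p = 0.5, and identifiers are not replicates, so the difference is given without a test. Summed counts per kb were 30.1 and 30.4 in the first part and 89.5 and 92.8 in the last.

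The ends also differed in their highest identifiers. The top identifier of the last part, MH09g0391200, had an FPKM of 3063 ± 76.0 (SD, n = 2), against 114 ± 0.699 for MH09g0150900. The 10 highest of the last part had mean FPKM of 86.4 to 3063, with a median of 98.4, and those of the first part 26.0 to 114, with a median of 42.7. Of the 1000 MH identifiers with the highest mean FPKM, 7 were members and 26 lay in the last part. Each part was 1.93% of the 57185 MH identifiers, and the same share of the 1000 lies between these counts. Identifiers above the floor had a median FPKM of 5.02 and 4.94 in the first part and 4.76 and 4.55 in the last. Those medians are over identifiers that already passed the floor, and say nothing of the rest.

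Among the first parts of the 12 numbered chromosomes, chromosome 9 was the third lowest in expressed share. Chromosome 4 had 8.10% (6.86% to 9.54%), chromosome 10 had 10.5% (8.80% to 12.5%) and chromosome 9 had 11.0% (9.25% to 12.9%). The intervals of chromosomes 9 and 10 overlap widely, so the order of these is not settled. That of chromosome 4 ends at 9.54%, just past the 9.25% where that of chromosome 9 begins. Overlap of intervals alone does not show equal shares, and no test across identifiers was run. The next was chromosome 11 at 20.7% (18.6% to 22.9%), the highest was chromosome 3 at 40.8%, and the median of the other 11 was 24.2%. Over the 16033 identifiers of the other 11 first parts together, 24.7% were expressed and 35.4% had no count. In the share without a count, chromosome 9 at 52.0% (49.0% to 54.9%) was second to chromosome 4 at 60.7% (58.3% to 63.1%). Chromosome 10 had 50.0% (47.1% to 53.0%). Last minus first, the gap on chromosome 9 was the third widest, after 26.7 points on chromosome 4 and 23.7 on chromosome 10.

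**Figure D4:**
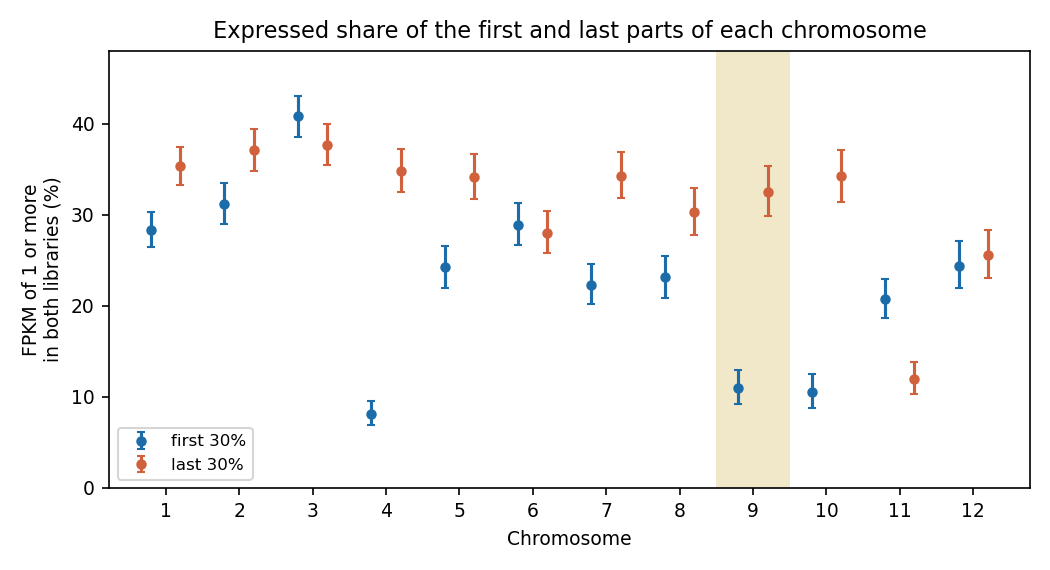
Percentage of identifiers at an FPKM of at least 1 in each library in the first 30% (blue) and last 30% (orange) of each numbered chromosome, with 95% Wilson intervals as bars and chromosome 9 shaded. The first parts of chromosomes 4, 9 and 10 lie at 8.10%, 11.0% and 10.5%, below all the other first parts.

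In its top level the first part of chromosome 9 was second lowest. Its highest mean FPKM of 114 lay above that of chromosome 10 only, where MH10g0107900 reached 60.3, and below that of chromosome 4, where MH04g0188100 reached 268. The highest over all first parts was MH11g0071000, with 3364. Chromosome 4 had 1.51% of its first part at an FPKM of at least 10 in each library, against 2.45% on chromosome 9. Chromosome 10 had nearly the same share as chromosome 9, 2.51%, and the median of the other 11 was 6.14%.

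Members were short, and most had a length divisible by 3. Their median length of 993 bases was the lowest of the 12 first parts, where the others ran from 1107 to 1664. The quartiles were 455 and 2209 bases. The last part of chromosome 9 had a median of 1423. Of the members, 87.1% had a length that is a multiple of 3, close to the 87.6% on chromosome 4, and above the 67.0% in the last part and 72.1% over the other first parts. Coding sequence has such a length, and a model with untranslated regions may or may not have one, so this class can mix both kinds of model. Members without a count were the shorter ones, with a median of 702 bases and 95.8% multiples of 3. Expressed members had a median of 1982 bases and 56.2% multiples of 3. Over all MH identifiers the medians were 730.5 bases without a count and 2136 bases for expressed ones. Multiples of 3 were 18825 of 20716 MH identifiers without a count and 6928 of 13298 expressed ones. This pattern was thus not particular to the members.

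When both ends were compared within length classes, the gap stood in models whose length is a multiple of 3. In that class 68 of 962 members were expressed (7.07%, 5.61% to 8.86%), against 196 of 740 in the last part (26.5%, 23.4% to 29.8%). For models of 2000 bases or more in that class the shares were 10.6% (7.28% to 15.2%) in the first part, 41.8% (35.2% to 48.7%) in the last and 26.0% (24.5% to 27.5%) over the other first parts. For those of 1000 to 1999 bases they were 7.69%, 33.6% and 22.1%. Of the sets compared here, the members were lowest in all 4 length classes of that kind. This was not particular to chromosome 9. Among the 12 first parts taken singly, it ranked 3 from the lowest for such models.

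Models with other lengths were much closer. Of the 142 such members, 53 were expressed (37.3%, 29.8% to 45.5%), against 163 of 364 in the last part (44.8%, 39.8% to 49.9%) and 42.4% over the other first parts. At 2000 bases or more the shares were 50.0% (38.4% to 61.6%) of 68 members, 51.0% (44.1% to 57.8%) of 202 and 52.6% of 2443. At 1000 to 1999 bases they were 42.1% (27.9% to 57.8%) of 38 members, 44.1% of 127 and 35.7% of 1468. These intervals overlap, but with so few members they would also hide a gap of several points. Of the members, 12.9% fell in this class, against 33.0% of the last part.

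**Figure D5:**
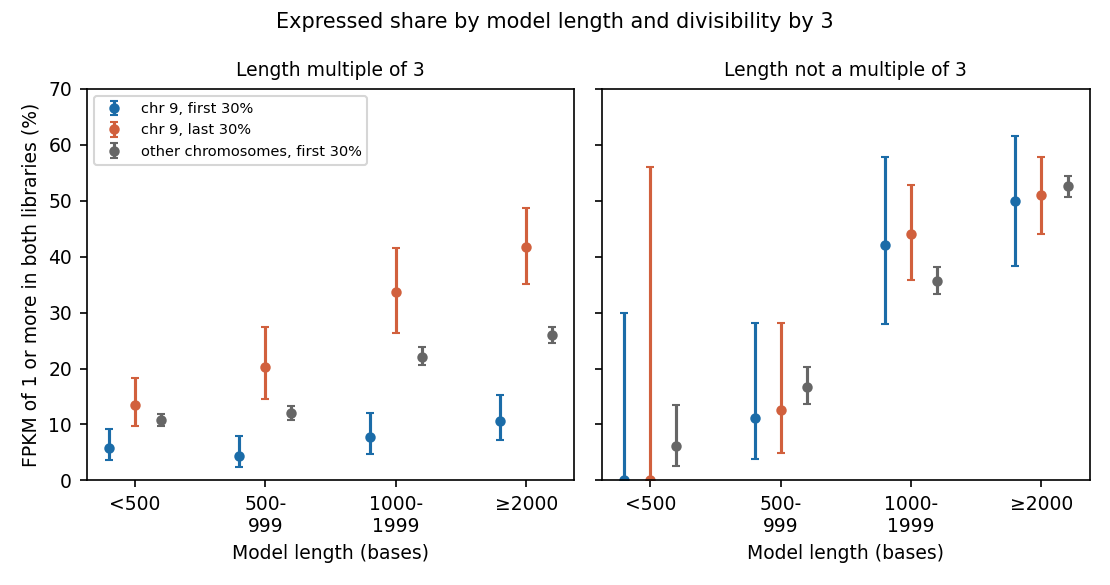
Percentage of identifiers at an FPKM of at least 1 in each library by model length, for lengths that are a multiple of 3 (left) and that are not (right), in the first part of chromosome 9 (blue), its last part (orange) and the other first parts (grey), with 95% Wilson intervals as bars. On the left the members are lowest in each class, at 10.6% against 41.8% and 26.0% for 2000 bases or more, and on the right the bars overlap, at 50.0%, 51.0% and 52.6%.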

How the data were processed

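Total RNA was measured in 2 libraries of 1 group. The labels' protocols name ribosomal RNA depletion from 2 µg of RNA with a strand-marking kit, and series text gives paired reads of 150 bp. Trimmomatic, HISAT2 and HTSeq are named in the submitters' processing notes, with no version. Build, annotation and strand setting are not given in the sources used here, so overlapping and antisense models may share reads. Counts per gene are raw whole numbers as deposited by the authors. The authors deposited FPKM values beside them, which equal the count per kb scaled to the gene total to within 5.00e-06. Counting summary lines were left out of library sizes.

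Identifiers were sorted by name and cut by chromosome number. The members, parts and named identifiers were chosen with earlier results of these data known. Named are the 10 highest by FPKM and by count, the highest of each of 10 bins, run ends, and the highest of comparison regions. Identifiers in the first block or of a ribosomal RNA length, near the floor, in the longest runs or at an extreme ratio were named, and blocks, windows and length classes chosen, after values were seen. No gene lists could be used without names. Shares carry 95% Wilson intervals. Regions were compared as descriptions, without a test across identifiers.

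Libraries were compared with an exact binomial test against library sizes scaled by edgeR's TMM factors, for all identifiers whose counts summed to at least 10, and p was adjusted after Benjamini and Hochberg with a threshold of 0.05. The test was tried on simulated counts first. A pseudocount of 0.5 was used for log2 ratios of counts. DESeq2 size factors served as an alternative. The tools were edgeR 4.0.16 and DESeq2 1.42.0 in R 4.3.3, and scipy 1.17.1, pandas 2.3.3 and matplotlib 3.10.9 in Python 3.11.15.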

Additional observations from a re-analysis of the deposited data

Results flagged for a closer look

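Entries with more than a single alignment lay outside all counts per identifier and made up 27.7% of gene and summary entries in library 1 and 25.8% in library 2, a signal in data that no comparison used. Their share among the members of chromosome 9 was not tested, since no deposited value assigns them to genes.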

How the results depend on the processing

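The expressed share of the members, 11.0%, was 12.7% at an FPKM floor of 0.5, 5.07% at 5, 13.9% at 10 counts per library, 12.8% with FPKM rescaled to the MH total, 11.7% and 9.85% with 20% or 40% of the identifiers, and 7.07% or 37.3% among lengths that are or are not multiples of 3. In the same order, last minus first (21.6 points) was 25.2, 9.78, 26.1, 25.6, 22.6, 21.6, 19.4 and 7.46 points. Chromosome 9 minus the median of the other first parts (-13.2 points) was -15.4, -5.21, -16.4, -15.6, -16.3, -10.7, -10.4 and -2.48. With either library left out these were 11.1% to 11.4%, 21.9 to 22.6 points and -13.8 to -13.7 points. No direction changed under these settings, and chromosome 9 held rank 2 to 4 from the lowest of 12 first parts, rank 4 among lengths that are not multiples of 3. Members without a count (52.0%) were 60.5% to 65.2% with a single library and 74.8% at 2 or fewer counts. The median length of 993 was 1982 for expressed members. The 10 highest by count held 51.9% of the member counts over both libraries and 51.7% to 52.1% with a single library. With 20% and 40% of the identifiers the share was 60.9% and 45.1%. The 10 highest by FPKM held 45.9% of the summed FPKM of the members, and 35.1% and 36.0% of the member counts in libraries 1 and 2. Members called between libraries stayed at 0 under DESeq2 size factors, total counts and other count filters. No paired analysis was possible because there is only 1 group. The causes of these shifts were not tested.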
